A study of Ipomoea batatas with 12 samples.

Results

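In leaves of sweet potato (Ipomoea batatas), 54 genes stood higher after treatment with the peptide IbHypSysIV and stayed near their water level after treatment with the peptide IbPep1. CPM is the count scaled to a library total of 1000000. The genes were found among 22289 whose mean water level was 0.5 CPM or more, of 32301 gene identifiers in the deposited table. L is log2(CPM + 0.5) throughout. Members were chosen by their measured levels, on 4 conditions: a mean water level of at least 0.5 CPM, a mean L with IbHypSysIV at least 0.8 above water, a mean L with IbPep1 within 0.5 of water, and all 4 IbHypSysIV libraries above the other 8. All 12 libraries were used in this choice, and the members' differences between the 3 groups are given as a description, without a test.

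The plants were of cultivar Tainong 57, grown from scions, and the third leaf was treated for 1 h. The groups were water, IbHypSysIV and IbPep1, with 4 libraries each, and differed in nothing else that the labels give except numbers in the library titles. The last number of each title lies in a separate range for each group, and its meaning is not given. Whatever these numbers stand for cannot be told apart from treatment. The treatment field of IbPep1 replicates 2, 3 and 4 names other peptides than IbPep1, while the source name gives IbPep1 for all 4, and the source name was followed. Whole leaves were used, so a change in the share of a cell type and a change in RNA per cell cannot be told apart.

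Hydroxyproline-rich systemins are short glycopeptides that plants cut from a larger cell wall precursor, and they are known from the nightshade family and from sweet potato as inducers of wound and herbivore defence genes. Plant elicitor peptides are cut from other precursors on damage. In Arabidopsis they are sensed at the cell surface by receptor kinases, with a burst of calcium and early defence transcription. The deposited table gives identifiers alone, 0 of the 54 members matched the reference gene table, and no function can be stated for a member. Identifiers are given for 2 members, and the other members are called by their rank in rise, from 1 (largest) to 54. The members described by rank alone were picked after their values had been seen.

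Library totals ranged from 16607188 to 25073251 counts, so that 3 counts stood for 0.120 to 0.181 CPM (counting error only). Of the 648 values of the members, 646 were at or above this floor, and the lowest count of a member in an IbHypSysIV library was 18. Water replicate 3 stood apart from its group: over the 22289 genes its L correlated with the other water libraries at 0.941 to 0.955, against 0.983 to 0.989 among those, and with the IbPep1 libraries at 0.960 to 0.964. IbHypSysIV replicate 4 (0.955 to 0.967 against 0.968 to 0.982) and IbPep1 replicate 3 (0.960 to 0.968 against 0.975 to 0.986) also lay farther from their groups than the other libraries did. The number of members, the median rise and the calls against water are given below with and without these libraries. Summed levels, gaps between libraries, SDs within groups and the comparison with other raised genes are given with all 12 libraries only.

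The largest rise among the members was that of itf03g14120. Its level was 3.93, 3.61, 1.30 and 3.39 CPM in the water libraries, 9.47, 16.1, 11.7 and 31.6 CPM with IbHypSysIV, and 4.09, 3.32, 5.27 and 3.32 CPM with IbPep1. The highest value came from IbHypSysIV replicate 4 and the lowest from water replicate 3, and the lowest IbHypSysIV library was above all others. The means were 3.06 ± 1.19, 17.2 ± 9.99 and 4.002 ± 0.920 CPM (SD, n = 4 each), a ratio of 5.62 between IbHypSysIV and water and of 1.31 between IbPep1 and water. Mean L was 2.25 above water with IbHypSysIV and 0.40 above with IbPep1. Without water replicate 3 these differences were 1.95 and 0.10, and without IbHypSysIV replicate 4 the first was 1.91. Without water replicate 1 the IbPep1 difference was 0.53, beyond the limit of 0.5, and the gene was no longer a member.

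The most abundant member was itf02g11350. It stood at 242, 369, 591 and 308 CPM in water, at 1105, 1088, 1368 and 974 CPM with IbHypSysIV, and at 634, 353, 387 and 540 CPM with IbPep1. The water and IbPep1 libraries overlapped, with water replicate 3 the highest of its group, and the IbHypSysIV libraries lay apart from both. The means were 377 ± 152, 1134 ± 167 and 479 ± 132 CPM (SD, n = 4 each), with mean L 1.65 above water for IbHypSysIV and 0.38 for IbPep1. The closeness of IbPep1 to water depended on single libraries: the IbPep1 difference was 0.62 without water replicate 3 and 0.51 without IbPep1 replicate 2, both beyond the limit of 0.5, and in these settings the gene was no longer a member. Its rise with IbHypSysIV was 1.90 without water replicate 3.

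**Figure D1:**
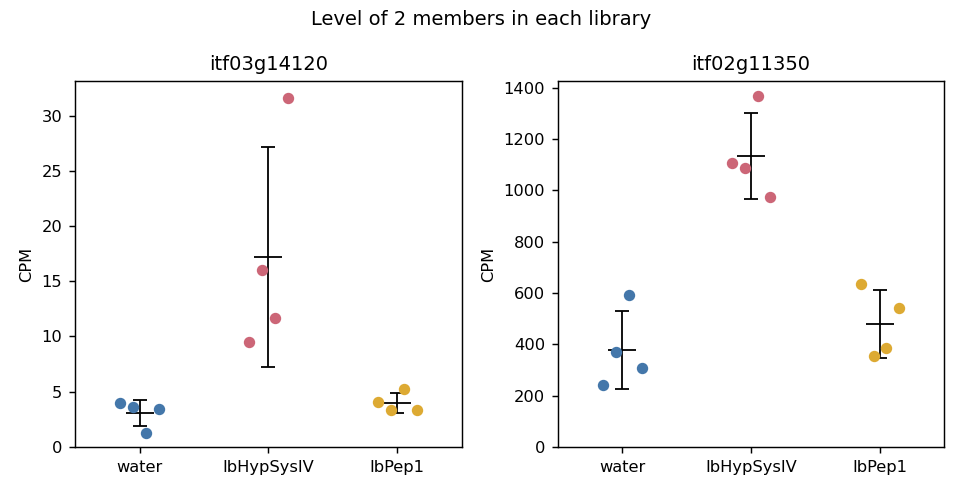
Level in CPM (vertical axes, linear from 0) of the 2 named members in the water, IbHypSysIV and IbPep1 libraries; points are single libraries, and the bar and whiskers are the mean and SD of 4. The IbHypSysIV libraries of itf03g14120 reach from 9.47 to 31.6 CPM, and those of itf02g11350 from 974 to 1368 CPM, above every water and IbPep1 library.

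Most rises were moderate. Over the 54 members the rise in mean L had a median of 1.14, with quartiles of 0.95 and 1.28 and a range of 0.80 to 2.25, while the median over the 22289 genes was -0.02. A rise of at least 1, a doubling on this scale, was seen in 37 members, of at least 1.5 in 8 and of at least 2 in 1. With IbPep1 the members lay between -0.48 and 0.43 of their water level in mean L (median 0.04), 29 above and 25 below. The direct difference between the peptides in mean L was 1.20 at the median and 0.48 to 1.999 over the members. The offset of 0.5 CPM shrinks differences of low genes, and the fitted log2 fold changes of the edgeR model had a median of 1.29 for IbHypSysIV against water.

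**Figure D2:**
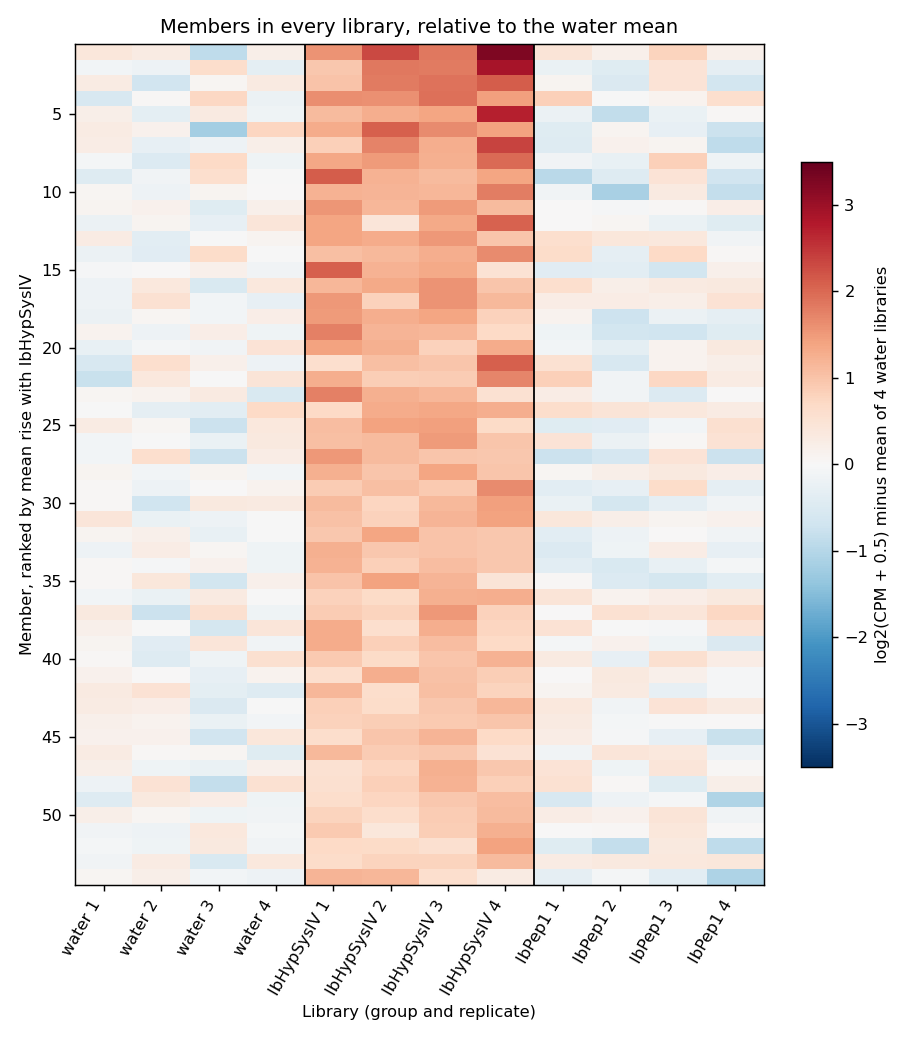
Each row is 1 of the 54 members, ranked by rise, and each column 1 library; colour gives L minus the mean L of the 4 water libraries (log2 units, red above and blue below). The 4 IbHypSysIV columns are red in every row, and the deepest cell of the 2 uppermost rows is in IbHypSysIV replicate 4, while ranks 4, 6 and 9 are deepest in replicates 3, 2 and 1.

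The members were mostly of low to middle level. Their mean water level was 0.507 to 377 CPM with a median of 5.11, below the median of 14.1 CPM over the 22289 genes. It was under 1 CPM in 8 members, from 1 to 10 CPM in 25, from 10 to 100 CPM in 19 and above 100 CPM in 2. With IbHypSysIV the median level was 12.4 CPM. The members took 1185 ± 214 CPM together in water, 2916 ± 196 with IbHypSysIV and 1210 ± 187 with IbPep1 (SD, n = 4 each), ratios to water of 2.46 and 1.02. The 2 most abundant members, itf02g11350 and the member ranked 52 by rise, made up 54.4% of the sum with IbHypSysIV. Without the 2 named genes the sums were 805 ± 65.2, 1765 ± 251 and 728 ± 151 CPM (SD, n = 4 each), ratios of 2.19 and 0.904. The member ranked 52 stayed in these sums, at 248 ± 43.7, 453 ± 136 and 191 ± 82.8 CPM (SD, n = 4 each).

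The rises differed in shape between the IbHypSysIV libraries. The member ranked second stood at 20.8, 19.7, 34.4 and 17.6 CPM in water, at 43.6, 81.3, 80.8 and 167 CPM with IbHypSysIV, and at 18.9, 16.4, 31.2 and 18.0 CPM with IbPep1. Replicate 3 of water, replicate 4 of IbHypSysIV and replicate 3 of IbPep1 were each the highest of their group. The member ranked 15 showed another order, with 48.2, 26.0, 28.2 and 15.8 CPM with IbHypSysIV, where replicate 4 was the lowest, against 9.95 to 12.4 CPM in water and 6.78 to 12.5 CPM with IbPep1. An even rise was also seen: the member ranked 44 stood at 11.3, 11.7, 12.2 and 12.8 CPM with IbHypSysIV, at 5.26 to 7.16 CPM in water and at 5.94 to 7.85 CPM with IbPep1. Its rise of 0.89 was among the smaller ones, and its IbHypSysIV libraries were among the closest to each other.

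IbHypSysIV replicate 4 was the highest library of its group in 23 members and replicate 1 in 15, or 42.6% and 27.8%, near their shares of 36.2% and 30.4% over the 22289 genes. Replicate 2 was the highest in 4 members, 7.41% against 20.1% of the 22289 genes, and replicate 3 in 12, 22.2% against 13.3%. Relative to the mean CPM of the other 3 IbHypSysIV libraries, replicate 4 stood at 0.464 to 2.81 times over the members, with a median of 0.950. It was more than 1.5 times higher in 11 members and more than 1.5 times lower in 7, and the shares over the 22289 genes were 15.1% and 10.2%. In the 11, the median rise was 1.34 with replicate 4 and 1.19 without it, and in the 7 it was 1.17 and 1.37. Over the other 3 libraries alone the smallest rises were 0.65 and 0.98, where the rule itself keeps every IbHypSysIV library above the water libraries.

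Members high in IbHypSysIV replicate 4 tended to be high in IbPep1 replicate 3, and the same tendency was seen over the 22289 genes. IbPep1 replicate 3 was above the mean L of its group's other libraries in 64.8% of the members and 62.7% of the 22289 genes. Of the 11 members with a high IbHypSysIV replicate 4, 10 had IbPep1 replicate 3 above the mean L of the other IbPep1 libraries (median 0.51 above), and of the 7 with a low replicate 4, 3 did (median -0.28). Across the 54 members the deviations of these 2 libraries from the rest of their groups had a Pearson correlation of 0.471 and a Spearman correlation of 0.510. Over the 22289 genes the values were 0.514 and 0.464. Between IbPep1 replicate 3 and IbHypSysIV replicate 3 the Pearson correlation was -0.558 over the members and -0.541 over the 22289 genes. These are descriptions across genes that share a library, its depth and its composition. Water replicate 3 was above the mean L of the other water libraries in 24 members, or 44.4%, against 57.8% of the 22289 genes. In all 3 libraries that stood apart, 12 members were above the mean L of the rest of the group and 9 were below. These were 22.2% and 16.7%, against 33.4% and 15.2% of the 22289 genes. The part of these libraries' own differences in the members' levels was not tested.

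**Figure D3:**
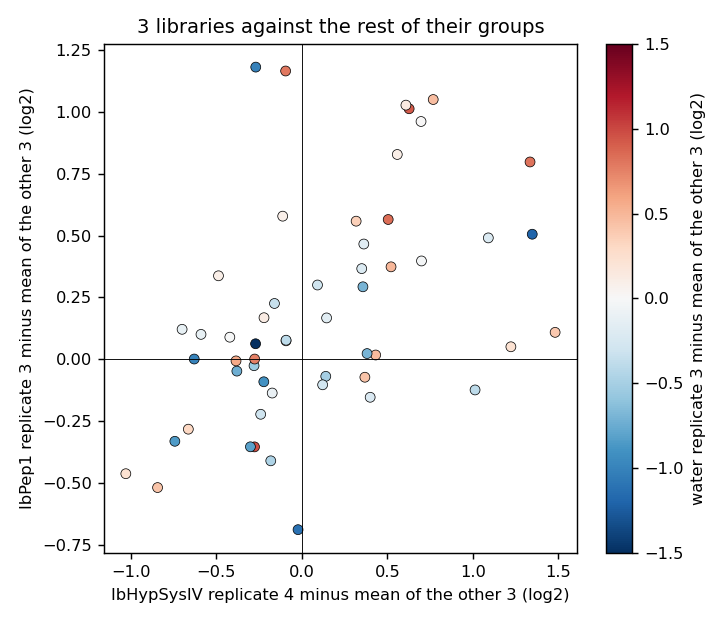
Each point is 1 of the 54 members: the horizontal axis is L in IbHypSysIV replicate 4 minus the mean of the other 3 IbHypSysIV libraries, the vertical axis the same for IbPep1 replicate 3, and the colour the same for water replicate 3 (all log2 units). Members high on the horizontal axis tend to be high on the vertical axis, with a Pearson correlation of 0.471, against 0.514 over the 22289 genes.

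Separation from the other libraries varied. The gap in L between the lowest IbHypSysIV library and the highest of the other 8 had a median of 0.31 and reached 0.87. It was under 0.1 in 12 members and at least 0.5 in 14. The highest of the other 8 was IbPep1 replicate 3 in 12 members and water replicate 3 in 9, and IbPep1 replicate 1 also in 9. Of the 22289 genes, 4.99% had all 4 IbHypSysIV libraries above all 4 water libraries, 10.8% had them above all 4 IbPep1 libraries and 1.85% above all 8. The rule asks for the last of these, so nothing is read from it for the members. Within groups, the median SD of L over members was 0.355 in water, 0.302 with IbHypSysIV and 0.308 with IbPep1, against 0.264, 0.281 and 0.245 over the 22289 genes, which have a higher median level.

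The rule drew its line through a continuous range. Of the 22289 genes, 532 had a rise of at least 0.8 (2.39%), and in 216 of these IbPep1 lay within 0.5 of water, while it lay farther above in 245 and farther below in 71. Of the 216, 162 had IbHypSysIV libraries that overlapped another group: 23 with water alone, 58 with IbPep1 alone and 81 with both. The smallest rises inside were 0.801 and 0.828, and the largest outside, in genes that met the other conditions, were 0.799 and 0.790. In 11 members the rise was under 0.9, and 37 genes met all other conditions with a rise of 0.7 to 0.8. The limits on IbPep1 were crossed closely as well, at -0.481 inside and -0.509 outside, and at 0.434 inside and 0.539 outside. With all other conditions met, 46 genes failed by lying lower with IbPep1, 3 by lying higher and 5 by their low water level.

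**Figure D4:**
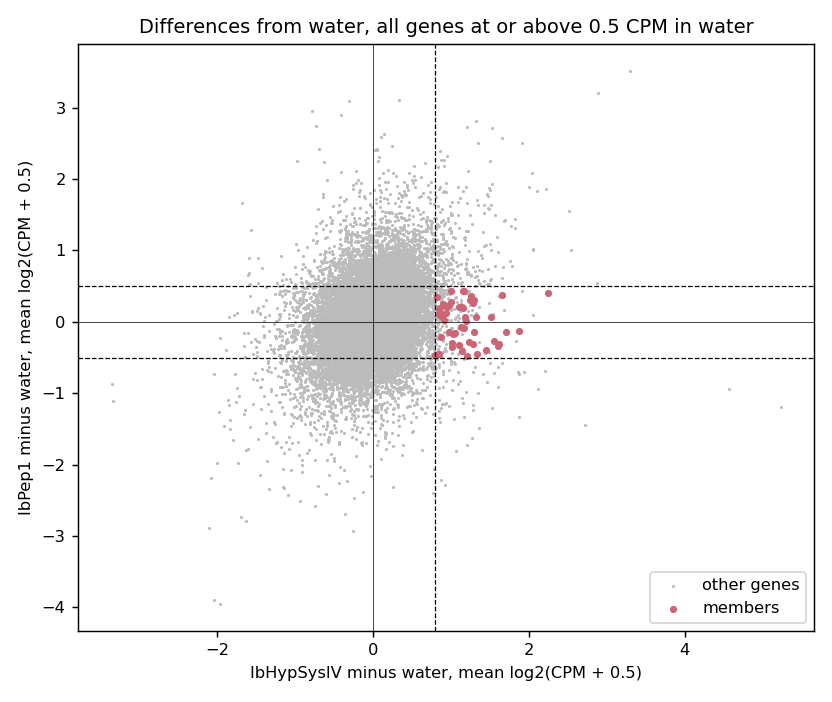
Mean L with IbHypSysIV minus water (horizontal axis) against mean L with IbPep1 minus water (vertical axis) for the 22289 genes; red points are the 54 members and dashed lines the limits of the rule at 0.8, 0.5 and -0.5. Both axes share the water libraries. Grey points lie close to the members on both sides of each line, and those inside the lines had overlapping libraries.

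Calls across all genes were made with edgeR's quasi-likelihood test on the counts of all 12 libraries, with Benjamini-Hochberg adjustment over 23193 genes and a limit of 0.05. For IbHypSysIV against water, 1.22% of the genes tested were called higher, and 37 of the 54 members were among them. For IbHypSysIV against IbPep1, 9.14% were called higher, and 47 members were among them. The rule used these contrasts, and the counts are given beside their background with nothing read from them. In 36 members both calls were made, in 1 the call against water alone, in 11 the call against IbPep1 alone and in 6 neither. The count of 37 fell to 9, 12 and 13 without water replicates 1, 2 and 4 and to 7 without IbHypSysIV replicate 3, while the count over all genes tested fell from 282 to 25, 45, 47 and 20. It was 37, of 565 genes called, without water replicate 3 and 39, of 634, without all 3 libraries that stood apart. Nothing in the labels says that the libraries came from separate plants, and the spread behind these calls may in part be technical.

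For IbPep1 against water, 11.5% of the genes tested were called in either direction with edgeR, and 0 of the 54 members. DESeq2 also called 0 members, against 4551 of 24819 genes tested. At an unadjusted p under 0.05 edgeR gave 2 members, and the share over all genes at this limit was not counted. The rule kept only genes whose mean L with IbPep1 lay near water. Few calls among the members, and intervals placed around small fold changes, therefore follow largely from the choice. The member counts are given beside their background with nothing read from them. The absence of adjusted calls does not show that the members were unaffected by IbPep1. The 95% interval of the fitted log2 fold change lay within 0.8 either way in 23 members and reached above 0.8, the rise asked of IbHypSysIV, in 12. Without water replicate 3, 1 member was called, of 6058 genes called, and without the 3 libraries that stood apart, 3 were, of 6569.

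Membership depended on single libraries. With each library left out in turn, 26 of the 54 members met the rule in all 12 settings, 7 in 11 and 21 in 10 or fewer, and no member in fewer than 6. Without water replicate 3, 39 members remained and 40 further genes joined. Of the 15 that left, the rise fell below 0.8 in 9, IbPep1 lay beyond 0.5 in 5 and the mean water level fell below 0.5 CPM in 2. A gene could fail on more than 1 of these. Leaving out IbHypSysIV replicates 1, 2 and 4 gave 112, 103 and 87 genes, with 52, 53 and 49 of the members among them, and leaving out IbPep1 replicate 3 gave 94 genes, with 49 members. The rule asks less of fewer libraries, so a larger number follows partly from its form. Without the 3 libraries that stood apart, 136 genes met it, 38 of them members.

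The 26 members that met the rule in every setting had a median rise of 1.22, from 0.89 to 1.87, and a median water level of 8.36 CPM. With IbPep1 they lay from -0.32 to 0.36 of water, 15 of them above. The 28 others had a median rise of 0.99 and a median water level of 4.15 CPM. The member ranked second, described above, was in every setting. The second most abundant member, ranked 52 by rise, was in 8 settings: it stood at 236, 221, 313 and 224 CPM in water, at 402, 388, 366 and 656 CPM with IbHypSysIV and at 184, 138, 311 and 132 CPM with IbPep1. Its lowest IbHypSysIV library, at 366 CPM, was 0.22 in L above water replicate 3, the highest of the other 8. Its rise of 0.84 and its IbPep1 difference of -0.45 lay close to the limits. It left the members without water replicates 2 and 4, IbHypSysIV replicate 4 and IbPep1 replicate 3.

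**Figure D5:**
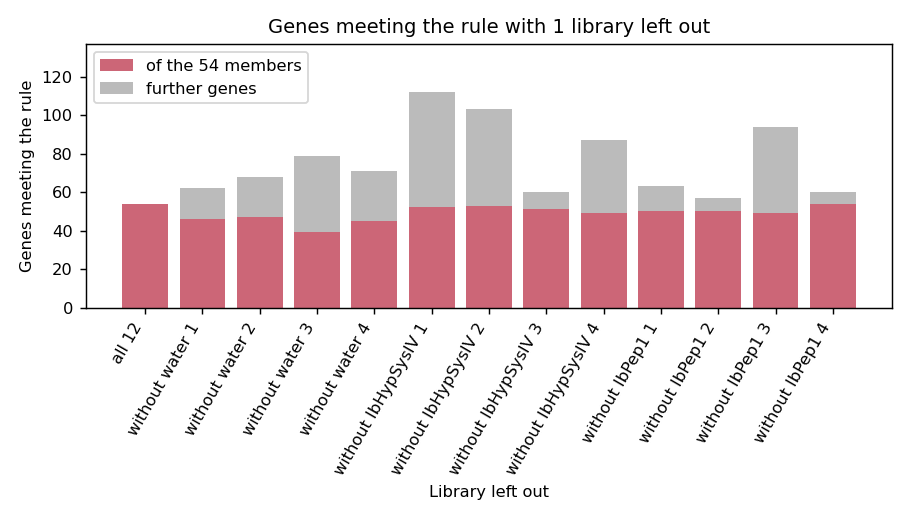
Number of genes meeting the rule (vertical axis, from 0) with all 12 libraries and with each library left out (horizontal axis); the red part counts the 54 members and the grey part further genes. The red part is lowest, at 39, without water replicate 3, and the whole bar is highest, at 112, without IbHypSysIV replicate 1.

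Among genes raised at least 0.8 by IbHypSysIV with no overlap with water, 95 lay more than 0.5 above water with IbPep1 and 47 more than 0.5 below. The median rise with IbHypSysIV was 1.16 in the 95 and 1.17 in the 47, close to the 1.14 of the members. The median water level was 3.18 CPM in the 95 and 13.4 CPM in the 47, with the members' 5.11 CPM between them. IbHypSysIV replicate 4 was the highest of its group in 62.1% of the 95, in 42.6% of the members and in 25.5% of the 47. Water replicate 3 was above the mean L of the other water libraries in 68.4%, 44.4% and 51.1%. The members' IbHypSysIV libraries were closer together, with a median SD of L of 0.302 against 0.433 and 0.404. The rule also asked the members for no overlap with IbPep1, which 3 of the 95 and 46 of the 47 met. These differences between sets of genes were not tested.

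The identifiers of the members were spread over the table, which orders them by prefix. Of 16 prefixes, 15 held a member, with 7 of 1756 genes above the water minimum for itf03, 5 of 1178 for itf13, 1 of 1493 for itf05 and 0 of 752 for itf00. Within 25 rows of the table, 8 members had another member, and 2 were in adjacent rows. The nearest non-members on either side that passed the water minimum had a median rise of 0.07, and 5 of them (4.72%) rose by at least 0.8, against 2.39% of the 22289 genes. What these identifiers say of position in the genome was not analysed here.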

How the data were processed

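Messenger RNA was sequenced from 12 leaf libraries. The authors deposited raw read counts per gene, 1 column per library. The submitters' processing notes list the aligner HISAT2 2.0.5, the counter HTSeq 0.6.1 and the package DESeq2 1.22.2. Build, annotation and strand use were not given in the sources used here, so reads of overlapping, antisense or near-identical genes cannot be told apart. CPM was the count divided by the column total and multiplied by 1000000. Members, lists and rules were chosen with earlier results of these data known. The names printed follow a rule: the member with the largest rise and the one with the highest level with IbHypSysIV. Calls used edgeR 4.0.16 in R 4.3.3 with filterByExpr (23193 genes kept, all 54 members among them), TMM factors (0.914 to 1.10), 1 model of 3 groups and 9 residual degrees of freedom. Interval widths were derived from each fitted fold change and F value. The code was checked on simulated counts with planted rises larger than those of most members and with no library standing apart. For the rule, the planted genes also had higher levels than most members. The check does not show how well genes like the members are found. Groups followed the source names, with replicates numbered in accession order. The gene lists planned on product descriptions could not be used. Alternatives were other scalings, offsets and limits, DESeq2 1.42.0, other fits and libraries left out. No 2 libraries of a group agreed within sampling noise (lowest chi-square per degree of freedom 13.5).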

Additional observations from a re-analysis of the deposited data

Results flagged for a closer look

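Among 18 groups of 4 values, 1 value lay far from the others. The summed level of the members without the 2 named genes was 901 CPM in water replicate 3, while the other water libraries reached 781 CPM, a gap of 0.845 of the whole range and past Dixon's 95% limit. Chance flags about 1 in 20 such groups. The flagged sum still held the member ranked 52, at 313 CPM in water replicate 3 and 221 to 236 CPM in the other water libraries. Water replicate 3 was above the mean L of the other water libraries in 24 of the 54 members.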

How the results depend on the processing

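The number of members was 46 to 74 with the other scalings, offsets and water limits, 37 for a rise of at least 1, and 28 with IbPep1 within 0.25 of water. It was 57 to 112 with 1 library left out and 136 without water replicate 3, IbHypSysIV replicate 4 and IbPep1 replicate 3, a setting chosen after seeing the data. The median rise was 1.25 and 1.01 with offsets of 0.1 and 1 CPM, 1.09 to 1.15 with 1 library left out and 1.07 without the 3. The median IbPep1 difference was -0.01 to 0.04 with 1 left out. The causes were not tested.

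Over all genes, 282 were higher with IbHypSysIV than in water, 2119 higher than with IbPep1, and 2670 were called for IbPep1 against water. With 1 library left out these counts were 20 to 565, 1003 to 2819 and 531 to 6058, and those of the members were 7 to 38, 37 to 51 and 0 to 1. DESeq2 called 927 genes for the first and 4551 for the third. A fit of the 2 groups alone called 93 for the first, 22 of them members. Without the 3 libraries the first count was 634, the third 6569 and the members in the third 3.

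The labels do not say that title numbers pair libraries, and deviations of same-numbered libraries correlated over 0.1 in 2 of 7 pairs (-0.102 to 0.154). With the replicate block, which leaves 3 residual degrees of freedom, edgeR called 0 genes and 0 members higher with IbHypSysIV than in water (1197 and 44 at an unadjusted p under 0.05), and 383 genes, 19 of them members, higher than with IbPep1.

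Alternative values of the 2 named genes (rise, and IbPep1 difference from water) numbered 68. Of these, 64 moved by less than the SD of L among the 4 libraries of the peptide concerned, including values that ended membership. The 64 include settings without a library of the other peptide, which cannot change the value. For the rise of itf03g14120 the SD was 0.738, so that 1.61 without the 3 libraries counted as unmoved from 2.25. The count of 64 is therefore no measure of stability. Depth limits the 8 members under 1 CPM in water most.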
